A study of Oryza sativa Japonica Group with 6 samples.

Results

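The YABBY genes of rice were followed in anthers of the dao mutant and of wild type. Members were found by name in the gene annotation, as FIL1 (also YABBY1 or YAB1), DL, or any gene named YAB or YABBY with a number. The search returned 8 genes, of which 7 had a probe set listed for them alone, with 8 probe sets among 57381. FIL1 and DL were selected on earlier results of these data, in which their measured differences between the dao and wild-type arrays were known. The values of these genes in that comparison are therefore given as a description, with no test. The other YABBY genes came in through their names only, and for them the fit across all probe sets is given.

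The series compares 3 samples from dao mutant plants with 3 from wild-type plants, all of a japonica variety grown in the field. RNA came from mature anthers at anthesis, and each sample went on 1 Affymetrix rice genome array, which reports 1 signal per probe set. The sources used here do not describe the lesion in dao or name the variety, and the samples of each group are labelled biological replicates. A free-text line of the labels speaks of seedlings instead, and for the dao samples it names Epi-df, while every other field names anthers.

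YABBY proteins are a plant family of transcription factors with a zinc finger at one end and a helix-loop-helix like YABBY domain. In Arabidopsis most of them mark the lower side of leaves and floral organs and promote growth of the blade. In rice, DL (DROOPING LEAF) specifies the carpel and the midrib of the leaf, and loss of DL turns carpels into stamens. Rice YABBY1, here FIL1, is known from stamen and carpel primordia and from feedback control of gibberellin synthesis.

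DAO, the auxin oxidase gene after which the mutant is named, had signals of 1551, 1168 and 1391 on the dao arrays, against 480, 883 and 686 on the wild-type arrays. The place of its probes relative to the lesion is not known here, so this does not check the labels. The beta-expansin genes EXPB9 and EXPB10, used as markers of mature pollen, were bright on every array, with EXPB9 at 11240 to 11540 on the dao arrays and 12510 to 13040 on the wild-type arrays. Median signals were 8.80 to 9.31 over the 6 arrays, and detection calls were not used here, so whether a dim probe set is above background is unknown. In both groups replicate 3 lay between the others where these differed: this held for 98.9% of 1236 probe sets with a 2-fold difference between replicates 1 and 2 on the dao arrays and for 98.6% of 1918 on the wild-type arrays. Under the same rule the share was 9.50% for replicate 1 and 31.9% for replicate 2 on the dao arrays, and 3.07% and 15.5% on the wild-type arrays. Over all probe sets tested, replicate 3 was the middle one in 55.2% on the dao arrays and 52.5% on the wild-type arrays. Whether the third array is an independent sample was not tested, and the p-values below assume that it is. In anther RNA, fewer cells of a type and less RNA per cell cannot be told apart.

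FIL1, which was selected with this difference known, had the largest difference of the family, on one of its probe sets. The FIL1 (LOC4342449) probe set whose name ends in _s_at read 123, 292 and 219 on the dao arrays, against 4.16, 37.6 and 19.0 on the wild-type arrays. All dao signals lay above all wild-type signals, and the lowest dao signal was 3.27 times the highest wild-type one. The means were 211 ± 84.8 in dao and 20.3 ± 16.7 in wild type (SD, n = 3 each). On the log2 scale dao minus wild type was 3.79 (SE 0.73), or 13.8-fold. The wild-type arrays spread widely, over a range of 9.03-fold, against 2.38-fold on the dao arrays. Among the non-control probe sets of each array, FIL1 stood at percentiles 83.4, 92.0 and 89.7 in dao and at 21.7, 71.9 and 62.8 in wild type.

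How large the FIL1 difference is depends on the wild-type arrays. Without wild-type replicate 1, where the signal is that of a dim probe set, it was 2.89 on the log2 scale, and without wild-type replicate 2 it was 4.48. After 32 was added to every signal, which damps dim values, it was 2.21. Over all probe sets tested, 3.37% were called at an adjusted p of 0.05 with a 2-fold difference, 2.03% were called higher in dao, and 17.9% had every dao array above every wild-type array. Nothing is read from FIL1 against these shares, since it was chosen on this contrast.

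The second FIL1 probe set, whose name ends in a plain _at, did not show the difference. It read 4.24, 4.76 and 4.22 on the dao arrays and 4.37, 3.65 and 4.02 on the wild-type arrays. These signals overlapped and were dim, at percentiles 21.6 to 27.8 in dao and 11.5 to 24.7 in wild type, and the log2 difference was 0.14 (SE 0.11, from the fit with no filter). The mean signal was under the filter on dim probe sets, so it was not tested in the filtered fit. In Affymetrix naming _s_at marks a probe set whose probes match more than 1 transcript. Whether the bright probe set also reads another transcript was not tested.

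**Figure D1:**
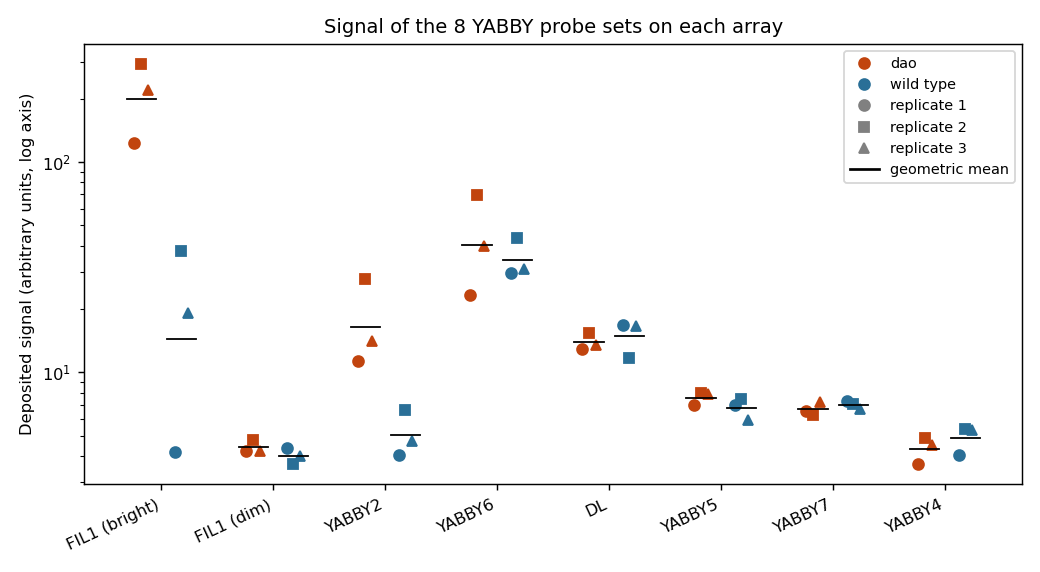
Deposited signal of each of the 8 YABBY probe sets on each array, on a log axis, with dao left of wild type and a mark for each replicate. The bright FIL1 probe set and YABBY2 have all dao arrays above all wild-type arrays, and the other 6 probe sets overlap.

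YABBY2 rose in dao anthers. This gene, also named FIL2, is the rice counterpart of the sorghum seed shattering gene Sh1. Its probe set (LOC4333584) read 11.3, 27.7 and 14.1 on the dao arrays, against 4.04, 6.64 and 4.69 on the wild-type arrays. Every dao array was above every wild-type array, by 1.71 times between the nearest values. The log2 difference was 1.71 (SE 0.33), a 3.28-fold difference with a 95% interval of 1.93 to 5.59, and it passed the threshold (limma adjusted p = 0.0206, 3 of 3 dao arrays higher). In the same fit 2.03% of probe sets passed in this direction.

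The YABBY2 signal was low in both groups. It stood at percentiles 55.0, 67.8 and 58.3 of the dao arrays and at 20.0, 40.6 and 25.7 of the wild-type arrays. The geometric mean of the wild-type signals, 5.01, lay under the filter of 6.33, so YABBY2 entered the test through its dao signals (16.5 for their geometric mean). With no filter the adjusted p was 0.0194, where 1.21% of probe sets passed in this direction. The call was lost without dao replicate 3 (log2 1.82, limma adjusted p = 0.0785), without wild-type replicate 3 (1.67, adjusted p = 0.104) and with 32 added to every signal (0.41, adjusted p = 0.0560). Without both arrays numbered 3 the difference was 1.78 (adjusted p = 0.359), a setting in which no probe set of the array passed in limma, with 3493 at an unadjusted p under 0.05. Over all settings the adjusted p ran from 0.00154 to 0.359.

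Of the 4 YABBY probe sets tested outside FIL1 and DL, YABBY2 was thus the 1 that rose, 0 fell and 3 did not pass. Both FIL1 and YABBY2 were highest on replicate 2 and lowest on replicate 1 in each group, and YABBY6 and YABBY4 had the same order. Replicate 3 lay between the others in 12 of the 16 sets of 3 arrays that the 8 probe sets make.

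YABBY6 was measured at 23.2, 70.0 and 39.7 on the dao arrays and at 29.8, 43.3 and 30.8 on the wild-type arrays. The dao arrays held both the highest and the lowest of these signals, so the groups overlapped. The log2 difference was 0.23 (SE 0.37, limma adjusted p = 0.742), with a 95% interval from 0.65-fold to 2.13-fold. Without dao replicate 2 the sign turned (log2 -0.17, adjusted p = 0.737). Its percentiles were 65.3 to 78.5 in dao and 68.5 to 73.4 in wild type.

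DL was dim and close to equal in the groups. Its probe set (LOC4332058) read 12.9, 15.4 and 13.5 on the dao arrays, against 16.7, 11.7 and 16.5 on the wild-type arrays. The dao signals all lay within the span of the wild-type ones. The means were 13.9 ± 1.31 in dao and 15.0 ± 2.82 in wild type (SD, n = 3 each), and the log2 difference was -0.09 (SE 0.18). Over the settings tried it ran from -0.34, without both arrays numbered 2, to 0.05, without both arrays numbered 1. DL stood at percentiles 57.1 to 59.6 in dao and 54.8 to 61.1 in wild type.

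The other members stayed at low signals on every array. YABBY5 is TONGARI-BOUSHI1, which acts in rice spikelet meristems and organ development. Its signals were 6.96, 7.93 and 7.89 in dao and 6.96, 7.46 and 5.90 in wild type, with a log2 difference of 0.17 (SE 0.13, limma adjusted p = 0.461) and a 95% interval from 0.91-fold to 1.38-fold. YABBY7 read 6.54, 6.29 and 7.24 in dao and 7.33, 7.06 and 6.67 in wild type (log2 -0.07, SE 0.11, adjusted p = 0.735; 0.80-fold to 1.14-fold). For both genes the groups overlapped.

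YABBY4, known in rice from vascular tissue, read 3.66, 4.86 and 4.52 on the dao arrays and 4.03, 5.37 and 5.30 on the wild-type arrays. It was under the filter, and with no filter its log2 difference was -0.17 (SE 0.15, limma adjusted p = 0.617). Together with the second FIL1 probe set, YABBY5 and YABBY7, it makes 4 probe sets that had no signal of 10 or more on any array (3.65 to 7.93). YABBY3 had no probe set listed for it alone and was not analysed here.

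**Figure D2:**
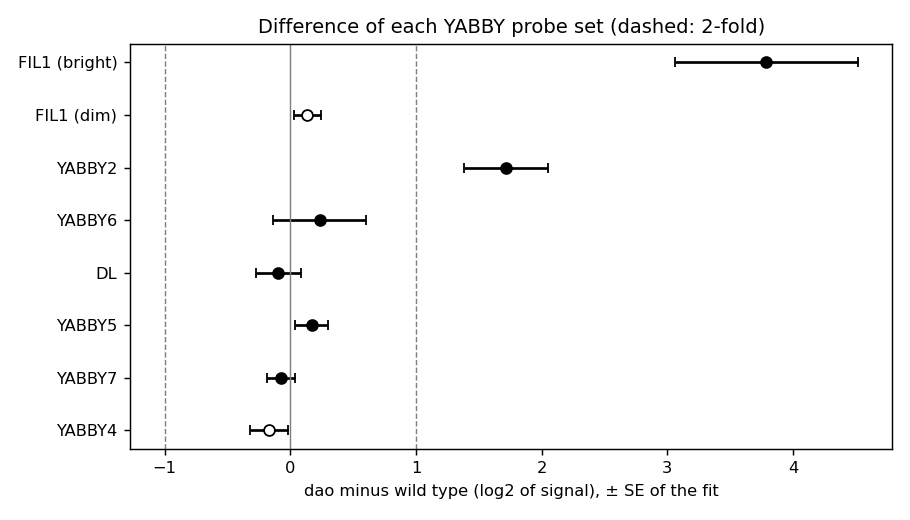
Log2 difference, dao minus wild type, of each YABBY probe set, with the standard error of the fit (filled points from the filtered fit, open points from the fit with no filter). FIL1 at 3.79 and YABBY2 at 1.71 lie beyond the dashed 2-fold line, and the other 6 lie from -0.17 to 0.23.

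**Figure D3:**
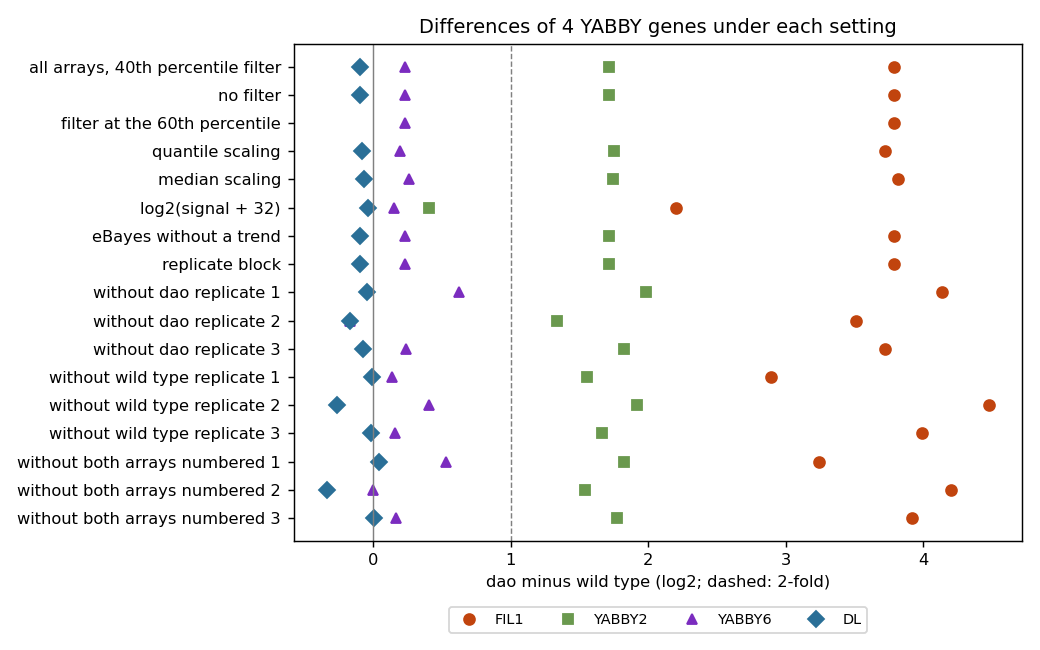
Log2 difference of FIL1 (bright probe set), YABBY2, YABBY6 and DL, dao minus wild type, under each setting. FIL1 runs from 2.21 to 4.48, YABBY2 falls under the dashed 2-fold line with 32 added to every signal (0.41), and YABBY2 and DL have no point where the filter at the 60th percentile removed them.

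Among genes with a name, the 5 most like FIL1 in their course over the 6 arrays had far smaller differences. Likeness was measured as Pearson's r of log2 signals over 6 arrays, which share the difference between the groups, and is given as a description. SCAMP6, a secretory carrier membrane protein, had r = 0.993 and read 334, 344 and 346 in dao, against 276, 310 and 293 in wild type. The potassium transporter HAK10 (r = 0.992) and the phosphatase PP2C48 (r = 0.991) followed, with log2 differences of 0.39 and 0.28. The small GTPase Rac5 (r = 0.989) and the homeobox gene Hox16 (r = 0.989) had log2 differences of 0.61 and 0.34. Of 34355 probe sets tested, 1282 (3.73%) had an r over 0.9 with FIL1, and 12 had one at or above that of SCAMP6, itself included.

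For DL, 82 probe sets (0.239%) had an r over 0.9. This share is not set against that of FIL1, which was chosen on the contrast that r shares. The nearest named gene was Sig2B, a plastid sigma factor (r = 0.969), at 17.0 to 22.5 in dao and 15.2 to 30.1 in wild type. EM, a late embryogenesis abundant gene (r = 0.952), the esterase gene Pir7b (r = 0.926), RAD23 (r = 0.891) and bZIP49 (r = 0.890) came next. EM was dim on every array, at 7.028 to 8.665. Pir7b read 30.3, 54.3 and 37.0 in dao and 660, 12.8 and 261 in wild type, so its wild-type arrays span far more than those of DL.

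Flower genes that act with or against DL included members that rose. Of 11 tested, 3 rose, 0 fell and 8 did not pass, where 2.03% of all probe sets tested were called higher. The median log2 difference of the 11 was 0.78, beside -0.01 over all probe sets tested. The list was chosen with earlier results of these data known, so nothing is read from its count or median against these values. MADS13, an ovule identity gene, read 29.4, 20.4 and 26.1 in dao, against 5.49, 6.58 and 6.47 in wild type (log2 2.02, limma adjusted p = 0.00212). Its wild-type mean of 6.18 lay under the filter, so MADS13 too entered the test through its dao signals, and with no filter its adjusted p was 0.00126. MADS17 and MADS6, of the AGL6 group, had log2 differences of 1.37 and 1.03 (adjusted p = 0.0105 for each). The MADS6 call was lost without dao replicate 2 (0.95) or 3 (1.07) and without wild-type replicate 1 (0.96) or 3 (0.99), and the MADS17 call without dao replicate 3 (1.49) or wild-type replicate 3 (1.22). With 32 added to every signal all 3 calls ended (MADS13 0.58, MADS17 0.74, MADS6 0.65 on the log2 scale), and that of MADS6 also with quantile scaling (0.98). The floral organ identity genes MADS4 and MADS7 (log2 differences 0.79 and 0.86) stayed under the 2-fold limit. MADS16, the stamen and lodicule gene that represses DL, read 4468, 3856 and 4218 in dao and 3608, 3621 and 3581 in wild type (log2 0.21, adjusted p = 0.127).

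Genes of organ polarity and outgrowth, where YABBY factors act in leaves, did not pass: of 14 tested, 0 rose, 0 fell and 14 did not pass, with a median log2 difference of 0.26. Of all probe sets tested 3.37% were called in either direction, so nothing is read from a count of 0 among 14. The largest difference was that of the KNOX homeobox gene OSH43, at 66.8, 79.2 and 66.8 in dao and 134, 140 and 131 in wild type (log2 -0.93, SE 0.13, limma adjusted p = 0.00724). The groups did not overlap, as in 31.4% of all probe sets tested, and the value missed the 2-fold limit, which it passed without dao replicate 2 (-1.02). The other OSH43 probe set had a log2 difference of -0.62. The log2 difference was 0.68 for HOX9, a class III HD-ZIP gene, and 0.76 for SHO1, of the small RNA pathway, and that of the auxin response factor gene ARF15 was 0.67.

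Of 12 gibberellin genes tested, 2 rose, 0 fell and 10 did not pass, with a median log2 difference of 0.13, beside the 2.03% of all probe sets called higher. Since this list too was chosen with earlier results of these data known, nothing is read from its count. EUI1, a P450 that inactivates gibberellins, read 536, 238 and 396 in dao, against 137, 188 and 173 in wild type (log2 1.17, SE 0.28, limma adjusted p = 0.0390). The synthesis gene GA20OX3 read 2992, 1342 and 2337 in dao and 872, 965 and 1005 in wild type (log2 1.16, adjusted p = 0.0314). Among the dao arrays both were highest on replicate 1 and lowest on replicate 2, the order also of the tapetum and green-tissue sums, while FIL1 was highest on replicate 2. These are orders of 3 arrays, and the part of these tissues in the EUI1 and GA20OX3 differences was not tested. The EUI1 call was lost without dao replicate 1 (0.90) or 3 (1.12) and without wild-type replicate 1 (1.04) or 3 (1.21). That of GA20OX3 was lost without dao replicate 1 (0.90) or 3 (1.08) and without any one wild-type array (1.10 to 1.20). CPS1, of an early step of synthesis, had a log2 difference of -0.57 and the receptor gene GID1 one of 0.51, both under the 2-fold limit. The other GID1 probe set had a log2 difference of -0.01.

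**Figure D4:**
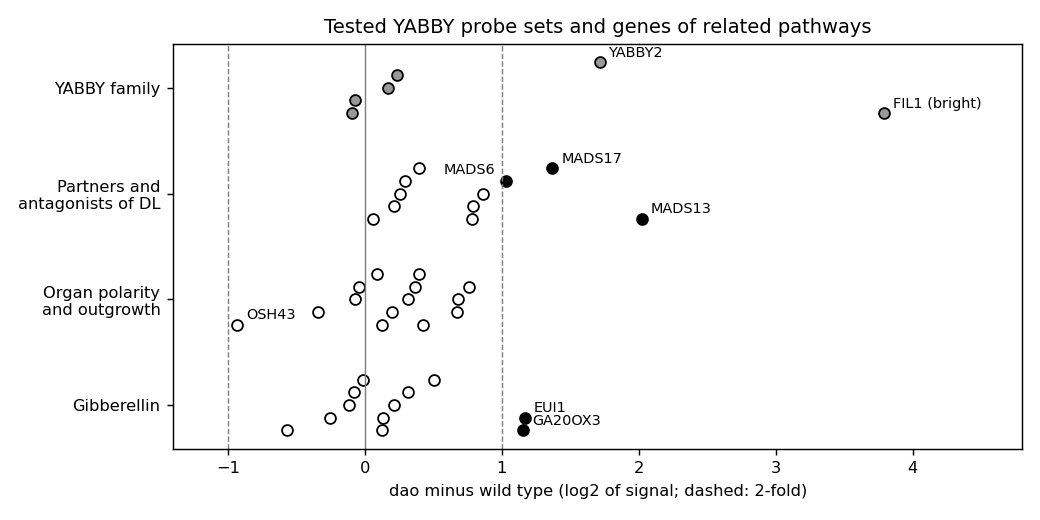
Log2 difference, dao minus wild type, of the 6 tested YABBY probe sets (grey) and of the tested genes of 3 related lists, 1 point per gene (black: past the threshold, white: not). MADS13, MADS17, MADS6, EUI1 and GA20OX3 are the list genes past the threshold, all higher in dao.

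Markers of other tissues were set beside FIL1 and YABBY2. Of 3 pistil and ovule genes, MADS13 and MADS21 were above wild type on every dao array, as were 17.9% of all probe sets tested. MADS21 was under the filter and not tested, at 3.84 to 5.73 in dao and 3.02 to 3.30 in wild type. The summed signal of the 3 was 747 to 774 in dao and 498 to 754 in wild type, nearly all of it from MADS58, whose groups overlapped. MADS58 read 489.5 to 744.1 on the wild-type anther arrays, where MADS13 read 5.49 to 6.58. The sum is therefore not read as a measure of pistil or ovule tissue. The 7 measured green-tissue genes summed to 4379, 1134 and 3279 in dao and 2840, 1371 and 1864 in wild type. The 8 tapetum and exine genes summed to 6217, 2414 and 5150 in dao and 2590, 2492 and 2560 in wild type. Most of this sum came from RTS, at 4684, 1541 and 3822 in dao and 1684, 1629 and 1676 in wild type. Of those tested, 0 of 7 tapetum and exine genes and 0 of 6 green-tissue genes passed the threshold. Since 3.37% of all probe sets tested did, nothing is read from these counts. In each of the 2 lists 1 gene was above wild type on every dao array, as were 17.9% of all probe sets tested. These were C6 of the tapetum list (log2 1.635, limma adjusted p = 0.0524) and PORB of the green-tissue list (0.838, adjusted p = 0.0467). For the other genes of both lists the groups overlapped. On the dao arrays the tapetum and green-tissue sums were highest on replicate 1 and lowest on replicate 2, as were EUI1 and GA20OX3. FIL1 and YABBY2 were highest on replicate 2 and lowest on replicate 1 there. The summed signal of the 2 pollen genes was lower on every dao array, at 16440 to 18230 in dao and 18970 to 21150 in wild type. For EXPB9 alone the groups did not overlap, as in 31.4% of all probe sets tested, and for EXPB10 they overlapped. Neither gene passed the threshold (log2 -0.163 and -0.245, limma adjusted p = 0.105 and 0.284). For 3 lodicule, lemma and palea genes the sums overlapped, at 218.5, 286.6 and 245.5 in dao and 255.5, 242.6 and 232.6 in wild type. On the dao arrays this sum had the replicate order of FIL1 and YABBY2. On the wild-type arrays it did not, being highest on replicate 1. No marker was listed at 0. The part of these tissues in the differences of FIL1, YABBY2, EUI1 and GA20OX3 was not tested.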

How the data were processed

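The deposited values are linear intensities, 1 for each probe set on each array. The submitters' processing notes name MAS5, with no version. The sources used here do not state the background step or the target value. Of 57381 probe sets, 123 AFFX controls were left out. The gene table paired 22436 probe sets with 1 gene, 95 with several, and gives none for 34850 (controls included). All 17905 genes were matched by gene ID to the names of assembly ASM3414082v1.

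Intensities were taken to log2 without scaling. Probe sets with a mean under the 40th percentile (a signal of 6.33) were left out, which left 34355. Differences were fitted with limma 3.58.1 in R 4.3.3 (lmFit, eBayes with a trend, group as the only term, 2-sided) and Benjamini-Hochberg adjustment across all probe sets tested. Probe sets past the threshold had an adjusted p of at most 0.05 and at least a 2-fold difference, as in the design text of the series (with the adjusted p for its q-value). The fit was tested on simulated data. The number of arrays, 3 per group, limits the precision.

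Members and lists were chosen with earlier results of these data known. The text names every member probe set, the 5 named genes with the highest r for FIL1 and for DL, and list members past the threshold or among the 4 with the smallest adjusted p (not all are printed). Where a list gene had more than 1 probe set, the brightest stood for it. A list name that fits several genes was left out, and genes without a matching name could not enter. MADS13, MADS21 and MADS58 stand in both the DL and pistil lists, and GAMYB in both the gibberellin and tapetum lists.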

Additional observations from a re-analysis of the deposited data

How the results depend on the processing

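Beside the settings named above, 698 probe sets were higher and 459 lower in dao past the threshold with all arrays. With 32 added to every signal the counts were 216 and 186. Without both arrays numbered 2 they were 1279 and 959, and without both numbered 3 they were 0 and 0, with a lowest adjusted p of 0.168 in limma. Leaving out 1 array gave 210 to 1084 higher and 68 to 751 lower. The cause of these shifts was not tested. For the bright FIL1 probe set, leaving out 1 array gave log2 differences of 2.89 to 4.48, and 32 added to every signal gave 2.21. For DL they were -0.26 to -0.01, and -0.34 without both arrays numbered 2. The direction of the bright FIL1 probe set and of YABBY2 was kept in all settings that gave them a value. For FIL1 nothing is read from this, since it was chosen on this contrast, and its other probe set had a value only with no filter. YABBY6 ran from -0.17 (reversed, without dao replicate 2) to 0.63 (without dao replicate 1). YABBY5 and YABBY7 passed in none. The filter at the 60th percentile removed YABBY2, DL, YABBY5 and YABBY7. With the replicate number as a block, 667 probe sets were higher and 469 lower, YABBY2 kept its call (log2 1.71, adjusted p = 0.0116) and EUI1 lost it (adjusted p = 0.0629). The labels give the numbers no shared origin, so the samples were not treated as paired. Deviations of same-numbered arrays correlated at 0.25, 0.18 and 0.09, and 5 of 6 arrays correlated best with their own number. Whether arrays of the same number share an effect was not tested.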
